A study of Arabidopsis thaliana with 6 samples.

Results

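The 10 genes described here encode B-type cyclins (CYCB1;1 to CYCB1;4 and CYCB2;1), Aurora kinases (AUR1 to AUR3) and the paired activators CDC20.1 and CDC20.2, all of which act in mitosis. They were chosen by gene identifier and not by a cut on their expression, though with earlier results of these data known. They are 10 of the 33602 genes listed for each library. Bulk RNA was read from pollen of Arabidopsis thaliana, accession Col, and all libraries share parent plants of 1 genotype, given as PAPS1 pLat52::RFP / paps1-3. Flow sorting on red fluorescence, which pLat52, a pollen promoter, drives, split that pollen into a wild-type group (n = 3 libraries, A to C) and a group carrying paps1-3, an allele of the nuclear poly(A) polymerase gene PAPS1 (n = 3 libraries, A to C). The labels give no plant age, sort gate or purity and do not state which fraction was the fluorescent one. The genotype as written puts pLat52::RFP with PAPS1 and opposite paps1-3, by which the wild-type fraction would be the fluorescent one. The labels also do not tie the letters to separate plants. The p-values therefore speak for variation among the 6 libraries alone, and that variation could be technical.

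B-type cyclins bind cyclin-dependent kinases and drive cells from G2 into mitosis, and they are destroyed at anaphase by the anaphase-promoting complex (APC/C), a ubiquitin ligase that CDC20 proteins activate. Aurora kinases phosphorylate spindle and centromere proteins: in Arabidopsis AUR1 and AUR2 are close relatives that work on the spindle and the forming cell plate, and AUR3 acts at centromeres. In pollen the generative cell divides to give the sperm cells before the grain is shed, and the surrounding vegetative cell does not divide.

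Libraries held 19861313 to 41176647 gene counts in paps1-3 and 31909683 to 37685541 in wild type. Counts of PAPS1 were 32, 25 and 20 in wild type and 18, 9 and 3 in the mutant (A to C), a log2 fold change of −2.61 ± 0.57 by the scaling described next (adjusted p = 0.000273). On plain library totals it was −1.36 ± 0.59 (adjusted p = 0.0454). A count was found for 24587 to 30343 genes per paps1-3 library and for 16869 to 19668 per wild-type library. Levels are given as CPM, counts scaled to a common library size. Library sizes were adjusted by TMM, a method that sets a trimmed average over genes equal between libraries. Its factors ran from 0.613 to 0.673 in wild type, and those of paps1-3 from 1.47 to 1.68. With plain library totals instead, log2 fold changes were higher by a median of 1.25 per gene, and the median of all 14273 tested genes moved from 0.37 to 1.62. Values under both scalings are therefore given for each gene. Calls are edgeR quasi-likelihood tests with Benjamini-Hochberg adjusted p below 0.05 over all tested genes, and each log2 fold change (paps1-3 minus wild type) is followed by its SE.

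By TMM the most abundant of the genes were lower in paps1-3 and most of the scarce ones higher. All 10 were tested. By TMM 4 rose (CYCB1;3, CYCB1;4, CYCB2;1 and CDC20.2), 5 fell (CYCB1;2, AUR1, AUR2, AUR3 and CDC20.1) and CYCB1;1 did not pass. Of all tested genes 72.2% were called, 42.3% higher and 29.9% lower. By library totals 6 rose, AUR3 alone fell and 3 did not pass, against 70.2% of all tested genes called higher and 9.72% lower, 79.9% in all. The same 4 genes rose under both scalings, AUR3 fell under both, and AUR2 was called in opposite directions. Libraries of the groups did not overlap in CPM by TMM for 4 higher and 5 lower members, where 44.0% and 31.5% of tested genes lay apart in those directions (75.5% in either). By totals the groups lay apart for 6 higher members and 1 lower, where 71.2% and 10.5% of tested genes lay apart (81.7% in either). The median log2 fold change of the 10 genes was −0.38 by TMM and 0.85 by totals, below the medians of all tested genes given above. CYCB1;1, CYCB1;4, CYCB2;1 and CDC20.2 passed the filter on low counts through the paps1-3 libraries only, so the number of these genes that rose is no support for a rise. Their own tests, and their ranks among tested genes, carry the same limit.

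**Figure D1:**
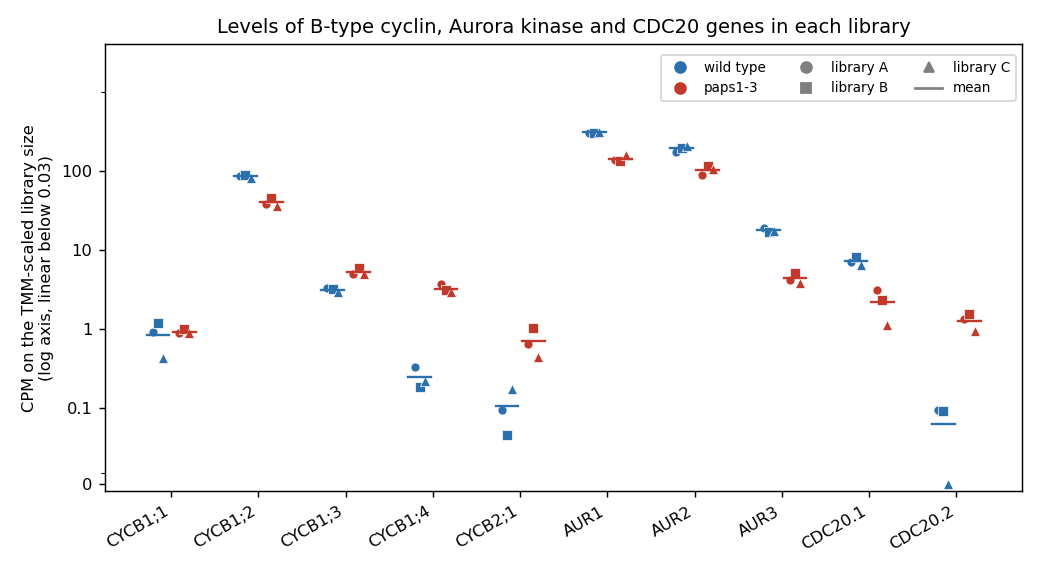
Level of each gene in every library, as CPM on the TMM-scaled library size (log axis, linear below 0.03). Blue symbols are wild type, red symbols paps1-3, shapes the library letters and bars the means of 3 libraries. AUR1, AUR2 and CYCB1;2 lie highest in both groups and are lower in paps1-3, while the 3 genes lowest in wild type, at most 0.331 CPM there, are higher in paps1-3.

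Per length of exon, AUR1 was the most abundant of the 10 genes in wild-type pollen, at 201 ± 4.0 CPM per kilobase (SD, n = 3), higher than 98.5% of the 32827 genes with an annotated length. AUR2 followed at 80.4 ± 6.7, CYCB1;2 at 46.5 ± 2.4 and AUR3 at 14.6 ± 0.9 CPM per kilobase. CDC20.1 (3.44 ± 0.39), CYCB1;3 (1.89 ± 0.10) and CYCB1;1 (0.513 ± 0.231) came next, and no neighbours down to CYCB1;4 (0.133 ± 0.043) overlapped between libraries. At the bottom CYCB1;4, CYCB2;1 (0.0629 ± 0.0388) and CDC20.2 (0.0318 ± 0.0276 CPM per kilobase) each overlapped the next.

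In paps1-3 the first 4 places were the same, with AUR1 at 94.0 ± 9.7 and CYCB1;2 at 21.7 ± 2.7 CPM per kilobase. AUR3 (3.60 ± 0.52) no longer stood apart from CYCB1;3 (3.16 ± 0.34). CYCB1;4 rose to the sixth place at 1.77 ± 0.20, above CDC20.1 at 1.03 ± 0.47. From CDC20.1 down, CDC20.2 (0.655 ± 0.163), CYCB1;1 (0.566 ± 0.042) and CYCB2;1 (0.424 ± 0.181 CPM per kilobase) overlapped neighbour by neighbour. The span from the highest to the lowest gene was narrower in paps1-3 than in wild type. Its low end in wild type rests on CDC20.2, which had 2, 2 and 0 counts there, so its width is poorly known.

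**Figure D2:**
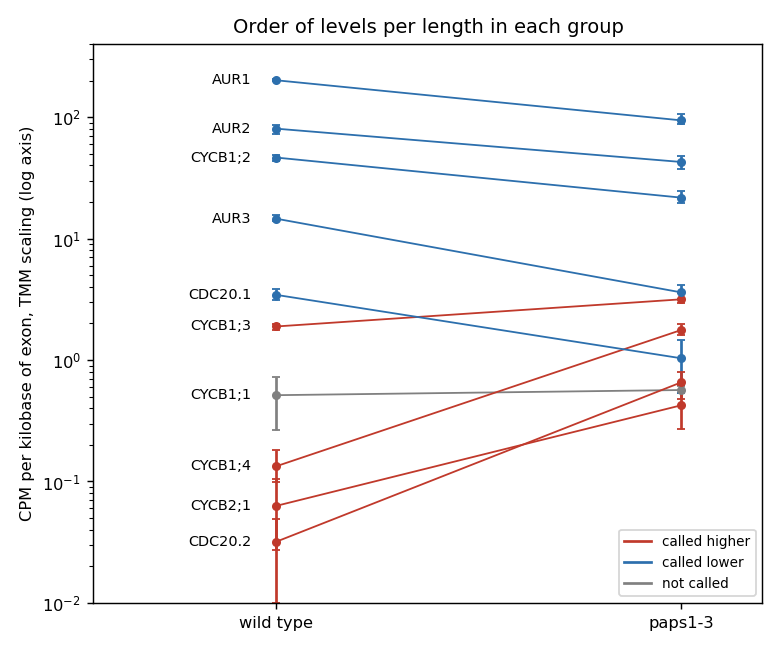
Levels per kilobase of exon by TMM scaling in wild type and paps1-3 (log axis). Points are means of 3 libraries, bars reach from the lowest to the highest library, and the lowest wild-type CDC20.2 library, at 0, is drawn at the foot of the axis. From left to right, lines of genes called lower (blue) run down and those called higher (red) run up. The line of CDC20.1 crosses those of CYCB1;3 and CYCB1;4, and CYCB1;1 (grey) was not called.

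CYCB1;2 (AT5G06150), a partner of mitotic cyclin-dependent kinases, had the most counts of the 5 B-type cyclins described here. It had 86.3, 88.4 and 79.9 CPM in wild-type libraries A to C, against 37.6, 45.3 and 36.2 in paps1-3. All paps1-3 libraries lay below all wild-type ones on this scale. The log2 fold change by TMM was −1.10 ± 0.13 (adjusted p = 8.88e-08), whereas by totals it was 0.15 ± 0.12 and did not pass (61.1 ± 7.1 against 55.3 ± 5.6 CPM, adjusted p = 0.281). Its direction therefore rests on the scaling.

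CYCB1;1 (AT4G37490), the cyclin most used as a marker of cells in G2 and mitosis and also induced by DNA damage, was scarce. It had 19, 26 and 10 counts in wild-type libraries and 54, 61 and 26 in paps1-3, or 0.898, 1.18 and 0.433 against 0.877, 1.00 and 0.890 CPM. The groups overlapped, and wild-type library C lay lowest of all. The log2 fold change was 0.15 ± 0.44 by TMM, with a 95% interval from −0.76 to 1.05 (adjusted p = 0.774), and −0.23 without wild-type library C. By totals it rose by 1.37 ± 0.47 (adjusted p = 0.0125).

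CYCB1;3 (AT3G11520), of the same subclass, had 69, 70 and 68 counts in wild type and 306, 358 and 142 in paps1-3. In CPM these were 3.26, 3.17 and 2.94 against 4.97, 5.88 and 4.86. Every paps1-3 library was above every wild-type library on both scales. The gene rose by 0.75 ± 0.21 by TMM (adjusted p = 0.00295) and by 1.99 ± 0.20 by totals (adjusted p = 1.68e-07).

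CYCB1;4 (AT2G26760) showed the steepest rise among the B-type cyclins here. It had 7, 4 and 5 counts in wild type and 224, 191 and 85 in paps1-3, or 0.331, 0.181 and 0.216 against 3.64, 3.13 and 2.91 CPM. The groups were far apart and the paps1-3 libraries close to each other. Its log2 fold change was 3.72 ± 0.37 by TMM, a 13.2-fold difference (adjusted p = 3.29e-09), and 4.97 ± 0.36 by totals (adjusted p = 2.02e-09). Of all tested genes, 90.9% had a lower fold change, but CYCB1;4 was tested through its paps1-3 libraries only, so this rank is no support for a rise.

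CYCB2;1 (AT2G17620), from the other main subclass of B-type cyclins, was nearly absent from wild-type libraries, with 2, 1 and 4 counts. In paps1-3 it had 39, 63 and 13, so that CPM went from 0.0945, 0.0454 and 0.173 to 0.633, 1.03 and 0.445. The groups did not overlap, but the paps1-3 libraries spread widely, with library B highest and C lowest. The log2 fold change was 2.72 ± 0.69 by TMM (adjusted p = 0.00122) and 3.94 ± 0.68 by totals (adjusted p = 6.07e-05).

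AUR1 (AT4G32830) was the most abundant of the Aurora kinases. It had 302, 299 and 310 CPM in the wild-type libraries A to C, against 135, 132 and 159 in paps1-3, with no overlap. By TMM it fell, with a log2 fold change of −1.10 ± 0.12 (adjusted p = 3.59e-08), and by totals it was 0.15 ± 0.10 and did not pass (219 ± 20 against 197 ± 6.1 CPM, adjusted p = 0.200).

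AUR2 (AT2G25880), the close relative of AUR1, had 174, 195 and 205 CPM in wild type and 88.3, 113 and 104 in paps1-3. The groups did not overlap. It fell by TMM (−0.91 ± 0.13, adjusted p = 1.32e-06) and rose by totals (0.33 ± 0.10, adjusted p = 0.00819).

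AUR3 (AT2G45490), the centromeric Aurora, was the only member called lower under both scalings. It had 399, 372 and 395 counts in wild type and 257, 307 and 112 in paps1-3, or 18.9, 16.9 and 17.1 against 4.17, 5.04 and 3.83 CPM. All paps1-3 libraries lay below all wild-type ones under both scalings. The log2 fold change was −2.01 ± 0.17 by TMM, a 4.02-fold difference (adjusted p = 1.46e-10), and −0.76 ± 0.16 by totals (adjusted p = 0.000456). Of all tested genes, 7.21% had a lower fold change.

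Each Aurora gene overlaps a neighbour in the RefSeq annotation, and the library kit does not mark strand, so reads in the shared stretch cannot be assigned with certainty. The neighbours had far fewer counts than AUR1 and AUR2: AT4G32840 (PFK6), beside AUR1, had 26 to 115 per library, and AT2G25890, beside AUR2, had 20 to 36 in wild type and 186 to 323 in paps1-3. AT2G45480 (GRF9), beside AUR3, had 4 to 7 in wild type and 59, 15 and 3 in paps1-3. PFK6 was lower in paps1-3 (log2 fold change −2.32 ± 0.26 by TMM and −1.06 by totals) and AT2G25890 higher (2.11 ± 0.26 and 3.35). GRF9 had too few counts to test. The part of neighbour reads in the Aurora values was not tested.

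CDC20.1 (AT4G33270), the main CDC20 gene of wild-type pollen and known for its need in meiosis, had 149, 179 and 150 counts in wild type and 189, 140 and 33 in paps1-3. That is 7.04, 8.12 and 6.49 against 3.07, 2.30 and 1.13 CPM. The groups did not overlap by TMM, and paps1-3 library C was lowest. The log2 fold change was −1.69 ± 0.26 by TMM (adjusted p = 3.31e-06) and −0.43 ± 0.30 by totals, which did not pass (adjusted p = 0.198).

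CDC20.2 (AT4G33260), the adjacent protein-coding gene and a near copy, did the reverse. It had 2, 2 and 0 counts in wild type and 83, 94 and 27 in paps1-3, or 0.0945, 0.0907 and 0 against 1.35, 1.54 and 0.924 CPM. The groups were widely separated. It rose by 4.33 ± 0.67 by TMM (adjusted p = 4.14e-06), and by 5.52 ± 0.66 by totals (adjusted p = 1.03e-06), and 94.1% of tested genes had a lower fold change. CDC20.2 too was tested through its paps1-3 libraries only, so this rank is no support for a rise. Without wild-type library C, the one at 0, the value by TMM was 3.69.

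Because the CDC20 genes are near copies, reads that fit both may be among those placed at several positions, which were left out. Over all genes, such reads were 7.90% to 11.6% of each paps1-3 table of counts and 5.30% to 6.14% of each wild-type one. The loss may therefore differ between groups. Each gene's level and the split of the pair are uncertain for that reason, and the part of these reads in the split was not tested. With their counts added and tested as 1 gene, the log2 fold change was −1.05 ± 0.23 by TMM (adjusted p = 0.000287). By totals the pair's summed level was 5.37 ± 2.21 CPM in paps1-3 and 4.75 ± 0.77 in wild type, with overlapping libraries, so the pair's lower level rests on the scaling. CDC20.2 made up 1.32% (2 of 151), 1.10% (2 of 181) and 0% (0 of 150) of the pair's counts in wild-type libraries A, B and C, and 30.5% (83 of 272), 40.2% (94 of 234) and 45% (27 of 60) in paps1-3. Wilson 95% intervals reached up to 4.70%, 3.94% and 2.50% in wild type and began at 25.3%, 34.1% and 33.1% in paps1-3. They cover counting error only, since reads without molecular identifiers are not independent molecules.

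**Figure D3:**
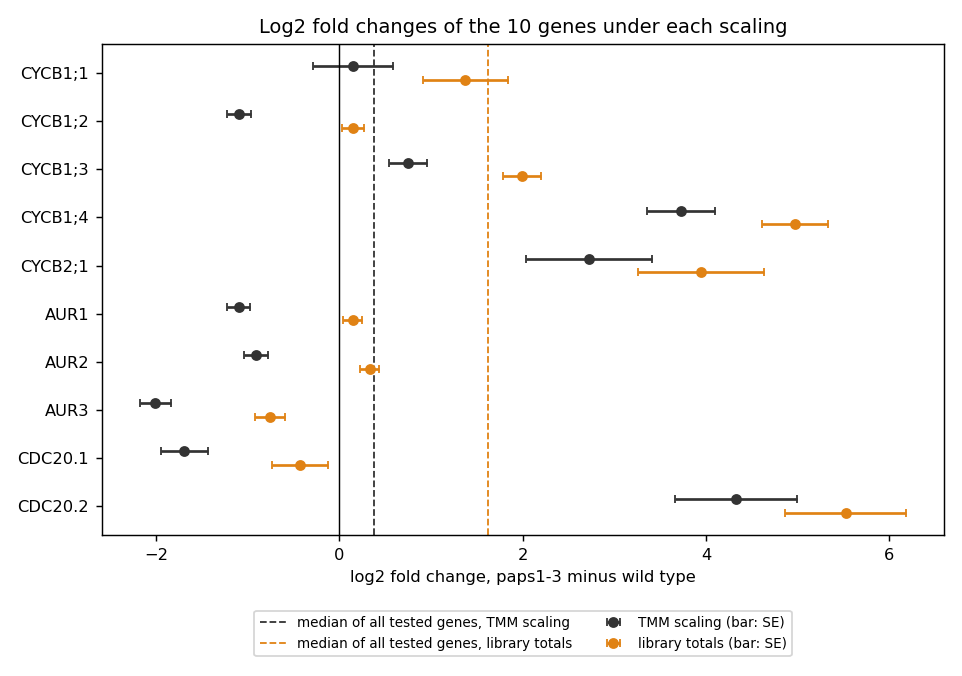
Log2 fold change of each gene, paps1-3 minus wild type, with its SE, by TMM scaling (black) and by library totals (orange). Dashed lines mark the median of all tested genes under each scaling, 0.37 and 1.62. The 4 genes that rose by TMM lie above the line of each scaling, and the 5 that fell by TMM lie below it.

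Shares within a family do not depend on how libraries are scaled. CYCB1;2 made up 95.2% ± 0.28 of the counts of the 5 B-type cyclins in wild type and 79.7% ± 0.82 in paps1-3 (n = 3 each). CYCB1;3 went from 3.51% ± 0.09 to 10.5% ± 0.18 and CYCB1;4 from 0.273% ± 0.085 to 6.54% ± 1.04. CYCB2;1 had 0.120% ± 0.080 and 1.38% ± 0.43, and CYCB1;1 had 0.924% ± 0.379 and 1.86% ± 0.10. For these 5 genes no share overlapped between groups. Shares of a family sum to the whole, so a lower CYCB1;2 share raises the others, and these are not 5 separate results. The share of CYCB1;1 was higher in paps1-3 although its level by TMM was not called (0.15 ± 0.44).

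In the Aurora family AUR1 took 59.3% ± 1.6 of its counts in wild type and 57.3% ± 3.8 in paps1-3, overlapping between groups (exact permutation p = 0.6). AUR2 took 37.3% ± 1.9 and 41.0% ± 3.6, and AUR3 3.44% ± 0.32 and 1.76% ± 0.29. The CDC20.2 share of its pair was 0.810% ± 0.710 in wild type and 38.6% ± 7.4 in paps1-3. Of the 9 shares tested, 8 gave the smallest two-sided exact permutation p that 3 against 3 libraries allow, 0.1 (0.113 after Benjamini-Hochberg adjustment), so none can pass 0.05.

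**Figure D4:**
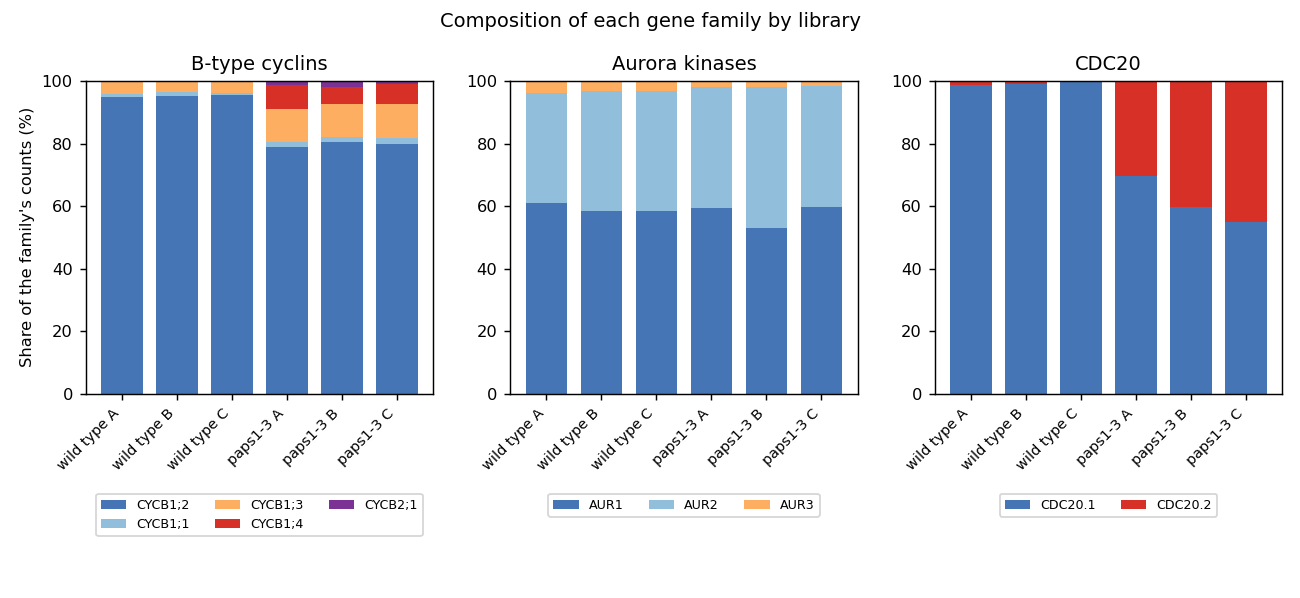
Share of each family's counts (%) taken by each gene, in stacked bars for the 6 libraries. CYCB1;2 fills on average 95.2% of the wild-type and 79.7% of the paps1-3 cyclin bars, AUR1 and AUR2 fill most of the Aurora bars, and CDC20.2 is visible in the paps1-3 libraries.

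Most markers of the cell types in pollen were lower in paps1-3 by TMM, but DAZ1 of the sperm cell (0.06) and ANX1 of the vegetative cell (−0.22) did not pass. Summed over the 7 sperm cell markers, CPM by TMM was 333 to 380 in wild-type libraries and 97.6 to 127 in those of paps1-3. By totals the sums were 211 to 252 and 144 to 198. Most of each sum was GEX1, at 267 ± 31 and 79.6 ± 13.2 CPM by TMM and 174 ± 22 and 123 ± 27 by totals. The sums therefore mainly show that gene. By TMM 5 of the 6 tested were lower, where 29.9% of all tested genes were, among them the sperm histone MGH3 (−1.31 ± 0.16), the fusion protein GCS1 (−1.20 ± 0.17), DMP9 (−1.51 ± 0.19) and GEX1 (−1.75 ± 0.14). DUO1, the germline factor known to be needed for CYCB1;1 expression in the generative cell, was at −1.16 ± 0.28 by TMM. Its value by totals was 0.09 and did not pass (adjusted p = 0.792). By totals 1 of the 6 was lower, GEX1 (−0.49), and 1 was higher, DAZ1. The other 4 did not pass by totals, with MGH3 at −0.07, GCS1 at 0.06 and DMP9 at −0.27, so their direction rests on the scaling. DUO1 and DAZ1 are named after their values were seen. The vegetative cell markers fell for 5 of 6 genes by TMM, and by totals 4 fell, where 9.72% of all tested genes did, and ANX1, named after its value was seen, rose (1.04, adjusted p = 1.95e-07). Those that fell furthest by TMM were RALF4 (−4.75 ± 0.15), LRX11 (−3.72 ± 0.15), ACA9 (−2.25 ± 0.13) and AGL104 (−1.85 ± 0.14). In such bulk samples fewer cells of a type and less RNA per cell cannot be told apart.

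Markers of dividing or green tissue outside pollen were low. Sums are by TMM unless stated, and WUS, CLV3, CAB3 and A9 are named for being at 0, after their values were seen. The 5 shoot meristem genes summed to 0.342 to 0.845 CPM in paps1-3, against 0 to 0.236 in wild type (0.504 to 1.42 against 0 to 0.157 by totals), with WUS and CLV3 at 0 in wild type, KNAT1 at 0.297 ± 0.212 against 0.0774 ± 0.0990 and STM at 0.110 ± 0.036 against 0.0158 ± 0.0273. No meristem gene had enough counts to test, and KNAT1 had 32, 6 and 8 counts in paps1-3 libraries A to C. The 7 green tissue genes summed to 1.12 to 1.27 against 0.260 to 0.331 CPM (1.65 to 2.04 against 0.159 to 0.219 by totals), with CAB3 at 0 in every library and the photosystem gene PSBO1 higher (4.03 ± 0.89). For the 6 tapetum genes the sums were 1.38 to 2.31 in wild-type libraries against 0.616 to 1.32 in those of paps1-3. By totals they overlapped, at 0.849 to 1.56 against 0.906 to 2.21 CPM. Most of these sums was AMS, at 1.66 ± 0.45 CPM by TMM in wild type and 0.720 ± 0.257 in paps1-3. AMS was lower by TMM (−1.17 ± 0.38) and at 0.08 by totals. Of the 6 genes, 4 were at 0 in every wild-type library, and A9 was at 0 throughout. MS1, named after its values were seen, had 0 counts in wild type and 10, 1 and 3 in paps1-3. CYCB1;4, CYCB2;1 and CDC20.2 were higher in the same libraries in which more genes had a count and the meristem and green tissue sums were higher. The part of these in the cyclin and CDC20 values was not tested.

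Further genes of mitosis were called in both directions. Of 70 further genes in 9 lists, 59 were tested, of which 17 rose and 19 fell by TMM (34 and 6 by totals), with a median log2 fold change of −0.10 (1.16 by totals) beside 0.37 (1.62) for all tested genes. These counts stand beside 42.3% of all tested genes called higher and 29.9% lower by TMM, and 70.2% and 9.72% by totals, against which the counts of each list below are also to be read. Of those that rose, CYCA3;3, CDKB2;1, CDKA;1, CCS52B, UVI4, BUBR1, KNOLLE and some others passed the low-count filter through the paps1-3 libraries only. The number that rose is therefore no support for a rise. Changes named for these genes are by TMM, with the value by totals second, and they are calls of the same test.

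Among the other B-type cyclins 3 of 5 fell by TMM and 2 did not pass, whereas by totals 1 rose and 4 did not pass. CYCB3;1 had −1.59 ± 0.16 and −0.33, CYCB1;5 −1.21 ± 0.18 and 0.06, and CYCB2;4 −0.85 ± 0.34 and 0.39, so none of the 3 passed by totals. A-type cyclins, which act from S phase to mitosis, had 5 higher and 2 lower of 8 tested (6 and 1 by totals). CYCA3;4 (1.23 ± 0.21 and 2.49) and CYCA3;3 (3.30 ± 0.65 and 4.53) rose under both scalings. CYCA1;2, which works in meiosis, fell under both (−1.71 ± 0.15 and −0.46), and CYCA2;1 fell by TMM only (−1.50 ± 0.29 and −0.24).

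Cyclin-dependent kinases were split in the same list. CDKB1;2 fell under both scalings (−1.79 ± 0.17 and −0.55) and CDKB2;2 by TMM (−1.17 ± 0.15 and 0.07), whereas CDKB2;1 (1.72 ± 0.56 and 2.93) and CDKA;1 (2.54 ± 0.85 and 3.73) rose. CDKA;1, the kinase that pairs with many cyclins, had 0, 5 and 0 counts in wild type and 28, 39 and 7 in paps1-3.

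CDC20 acts with the APC/C, whose other activators are CCS52 proteins. Of 3 other activators tested 2 rose by TMM and 3 by totals. CCS52A1 rose from 7.66 ± 1.14 to 26.0 ± 2.3 CPM (1.76 ± 0.16 and 3.01) and CCS52B by 2.62 ± 0.41 and 3.85, while the CDC20 relatives CDC20.3, CDC20.4 and CDC20.5 had too few counts to test, with at most 19 in any library (they are named after this was seen). Of 9 tested APC/C subunits 1 rose, 2 fell and 6 did not pass (5, 0 and 4 by totals). HBT, a CDC27 subunit, rose (1.08 ± 0.30 and 2.33), and its relative CDC27A (−1.22 ± 0.18 and 0.03) and APC11 (−0.96 ± 0.27 and 0.30) fell by TMM. UVI4, an inhibitor of the complex, had 27, 30 and 19 counts in paps1-3 and 0 in each wild-type library, at least 3.88-fold higher by TMM and 9.13-fold by totals against a floor of 3 counts per library.

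Spindle checkpoint genes, which hold CDC20 until chromosomes are attached, had 1 higher and 4 lower of 8 (3 and 2 by totals). AT5G05510, annotated with a Mad3/BUB1 homology region, fell from 66.8 ± 4.0 to 8.99 ± 2.31 CPM (−2.88 ± 0.17 and −1.63) and BUB3.2 from 10.8 ± 2.0 to 2.02 ± 0.29 CPM (−2.41 ± 0.20 and −1.15). PPK1 was at −1.51 ± 0.17 and −0.26, and MAD1 at −0.65 ± 0.21 and 0.60, the last called in opposite directions. The gene that rose was BUBR1 (1.89 ± 0.68 and 3.15), named after its value was seen.

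Among partners of Aurora kinases and centromere proteins 2 of 5 tested fell by TMM and 3 did not pass, whereas by totals 3 rose and 2 did not pass. SGO2, a shugoshin, had −1.53 ± 0.33 and −0.28, and AT4G39630 −1.67 ± 0.42 and −0.45. TPX2, which activates Aurora kinases on the spindle and was named after its value was seen, was at −0.36 ± 0.17 (adjusted p = 0.0591) and 0.89, and rose by totals only.

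For cytokinesis 4 of 10 rose and 3 fell (7 and 1 by totals). EDE1, a microtubule-binding protein, fell under both scalings (−1.89 ± 0.15 and −0.64). The kinesin PAKRP1 (−1.74 ± 0.20 and −0.49) fell by TMM, MOR1 was lower by TMM and higher by totals (−0.72 ± 0.12 and 0.53), and the syntaxin KNOLLE rose under both (1.94 ± 0.66 by TMM). Of the MYB3R factors, which control genes of G2 and mitosis including B-type cyclins, MYB3R4, mainly an activator, rose from 7.78 ± 1.05 to 13.1 ± 1.8 CPM (0.75 ± 0.17 and 1.99). MYB3R5, a repressor, fell from 5.38 ± 0.98 to 1.40 ± 0.39 CPM (−1.94 ± 0.26 and −0.69). With the APC/C inhibitors in the same list, 2 of 6 tested genes rose and 1 fell by TMM (4 and 1 by totals).

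**Figure D5:**
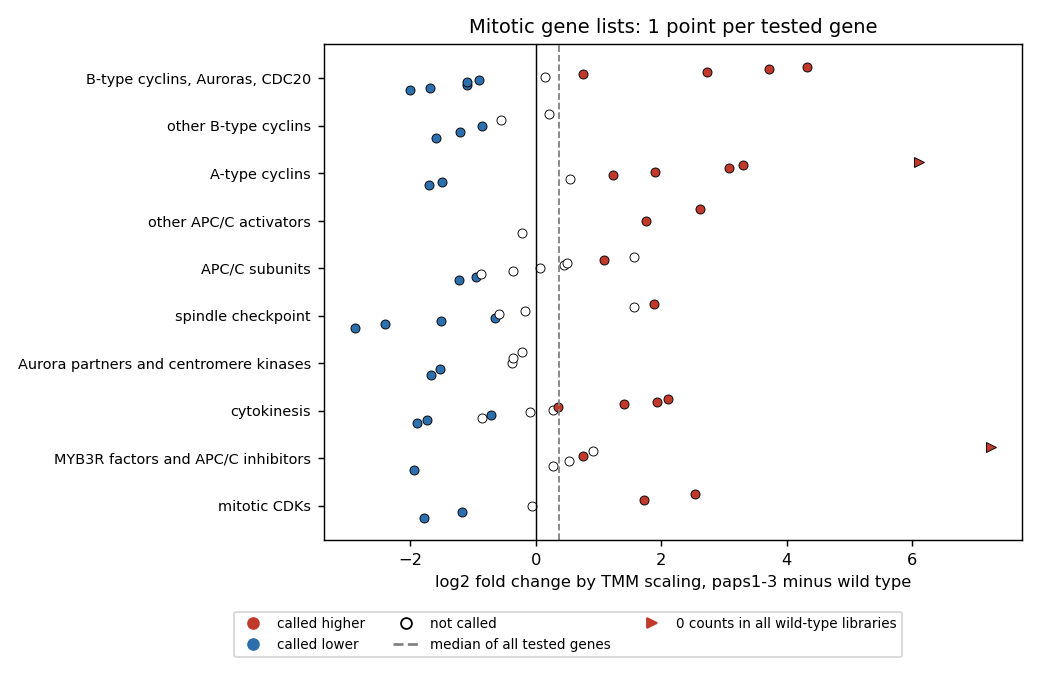
Log2 fold change by TMM, paps1-3 minus wild type, of each tested gene in the mitotic lists. Red points were called higher, blue points lower and open points were not called. Triangles mark genes at 0 in every wild-type library, whose fitted value depends on the prior count, and the dashed line is the median of all tested genes, 0.37. Most lists hold points on both sides of the line.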

How the data were processed

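The authors deposited raw counts of reads per gene, 1 table per library, made with TopHat2 and HTSeq against TAIR10, as the submitters' processing notes list them. Tool versions and the gene annotation were not given in the sources used here. Libraries came from total RNA with an amplification kit and were read as pairs of 101 and 99 bases, per the labels' protocols. Unassigned categories were left out: reads without a feature were 1.18% to 1.88% of each table, ambiguous reads 2.24% to 2.64% and reads placed at several positions 5.30% to 11.6%. Counts were tested with edgeR 4.0.16 in R 4.3.3 (robust quasi-likelihood, TMM, genotype only, filterByExpr with a minimum count of 10 and total of 15), after the code was tested on simulated data. Scalings, filters, DESeq2 1.42.0, a replicate block and left-out libraries were alternatives. Shares were compared by exact permutation tests with SciPy 1.17.1. Names and exonic lengths came from RefSeq's annotation of TAIR10.1, which matched 32835 identifiers. As it is a later build, no coordinates or sequences are printed. The members, lists and tests were chosen with earlier results of these data known. Beside the 10 members, the text names in each list at most the 4 called genes of lowest p (with no call, the 2 of highest mean CPM), and says where a name falls outside this.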

Additional observations from a re-analysis of the deposited data

How the results depend on the processing

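The 9 calls among the 10 genes kept their direction and side of the threshold with DESeq2's size factors, DESeq2's Wald test, no filter on low counts, organelle genes left out and any library left out. With 1 CPM in 3 libraries as the filter CYCB2;1 was not tested and the other calls held. Scaling by library totals changed most. It called 10018 genes higher and 1387 lower in place of 6037 and 4272, so that 87.8% instead of 58.6% of calls were increases. Of the 10 genes, 1 instead of 5 was then called lower. CYCB1;2 was at 0.15, AUR1 at 0.15, AUR2 at 0.33 and CDC20.1 at −0.43, and CYCB1;1 passed at 1.37. Leaving out each library gave −0.23 to 0.41 for CYCB1;1, the negative value without wild-type library C, 2.31 to 3.24 for CYCB2;1 and 3.69 to 4.69 for CDC20.2.

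By totals, genes called higher and lower became 1 and 0 in the other B-type cyclins, 6 and 1 in the A-type cyclins, 5 and 0 in the APC/C subunits, 3 and 2 in the spindle checkpoint, 3 and 0 in the Aurora partners, 7 and 1 in cytokinesis, 4 and 1 in the MYB3R list and 2 and 1 in the mitotic kinases. Marker lists gave 1 and 1 for sperm cells, 1 and 4 for vegetative cells and 0 and 0 for the tapetum.

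Library letters were not shown to pair the samples. Same-lettered libraries deviated together with correlations of 0.28, 0.07 and 0.10 over tested genes, and not every library correlated best with its own letter. With the letter as a replicate block 6116 genes were higher and 4426 lower, and all 10 genes kept their direction and side of the threshold. Genes with fewer than 10 counts per wild-type library, CYCB1;4, CYCB2;1 and CDC20.2 here, have fold changes that depth limits most.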
